A study of Saccharomyces cerevisiae with 9 samples.

Results

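White cultures of the cdc13-K504E mutant were compared with red cultures of the wild type, across all genes of the deposited count table. The comparison used 6 of the 9 libraries of the series, 3 labelled K504E-white and 3 labelled WT-red, chosen by their column names in that table. All 9 libraries came from budding yeast, Saccharomyces cerevisiae, of the laboratory strain W303, kept undiluted in stationary phase in the rich medium YPD for 15 days, and RNA was sequenced after poly(A) selection. WT-red carried wild-type CDC13. K504E-white and the remaining group, K504E-red, carried cdc13-K504E. The labels describe no white culture of the wild type, so in this comparison the mutation and the colour cannot be told apart. They do not say how many independent mutant clones were grown or how the white cells arose. The values are of mixed populations, in which fewer cells of a kind and less RNA per cell cannot be told apart.

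Cdc13 binds the single-stranded end of the telomere and, with Stn1 and Ten1, forms the CST complex, which protects chromosome ends and brings in telomerase and the DNA polymerase that fills in the other strand. The red colour of yeast comes from de novo purine synthesis. The pathway builds AMP and GMP stepwise, and W303 strains commonly carry a damaged ADE2, so that its substrate accumulates and turns into a red pigment in the vacuole. Making that pigment uses glutathione, and the pathway upstream of Ade2 takes up glycine and folate-bound one-carbon units. Its genes are switched on by Bas1 and Pho2 when adenine runs short. White colour appears when the step after the pigment precursor is restored or when the steps before it are blocked.

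The libraries held 28163511 to 34634199 counts in these 2 groups (WT-red 28163511, 34564131 and 31783399, K504E-white 34634199, 34514204 and 33712194). Replicates varied beyond counting error (chi-square over its degrees of freedom 13.5 to 31.6 in 9 within-group pairs). Markers of mating type a, the receptor gene STE2, the exporter gene STE6 and the protease gene BAR1, summed to 1064 to 1115 CPM (counts per 1000000 counts, with TMM-scaled library sizes) in the WT-red libraries and 1251 to 1310 CPM in K504E-white. The 4 markers of mating type alpha summed to 53.3 to 60.1 and 38.7 to 42.8 CPM, with the pheromone gene MF(ALPHA)1 at or below 1.83 CPM in every WT-red and K504E-white library. STE3, another of the 4, had a mean of 2.16 CPM in WT-red, so most of the sum came from the remaining markers. MF(ALPHA)1 was called higher from these few counts (log2 fold change 2.02, SE 0.649), and the other 3 were called lower. The 12 meiotic genes summed to 137 to 150 and 113 to 128 CPM. CDC13 itself (YDL220C, W303 contig 101, 17082 to 19856, minus strand) stood at 23.4, 24.4 and 27.6 CPM in WT-red and 21.8, 20.9 and 21.0 CPM in K504E-white. The log2 fold change was -0.24 (SE 0.125, adjusted p 0.121 in the edgeR quasi-likelihood fit, adjusted by Benjamini-Hochberg), which did not pass the threshold of 0.05, and counts per gene do not show the substitution.

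Of 5172 genes tested, 46.8% were called changed, 1205 higher in K504E-white (23.3% of all genes) and 1217 lower (23.5%). Most calls were small. The median size was 0.35 on the log2 scale, 78.9% of the called genes changed less than 1.5-fold, and 183 genes (3.54%) changed at least 2-fold, 89 higher (1.72%) and 94 lower (1.82%). In 56.1% of the genes the groups' libraries did not overlap. Of the calls, 20 rises and 20 falls reached 4-fold, and 1 rise and 4 falls reached 16-fold. For scale, 54.5% of the genes were called between K504E-white and K504E-red and 47.5% between K504E-red and WT-red. A list of genes with about 23% of its members called in a direction was therefore like the whole table. Among the most abundant messages per length, the aldolase gene FBA1 had a mean level of 18076 FPKM (the authors' length- and depth-scaled level) in WT-red and 18928 in K504E-white, and its CPM log2 fold change was 0.07 (SE 0.0670, adjusted p 0.435). In the same order, the cell wall gene CCW12 had 16236 and 18591 FPKM and the alcohol dehydrogenase gene ADH1 14226 and 17191 FPKM. The CPM log2 fold changes of CCW12 and ADH1 were 0.20 and 0.27, both called, the former not without K504E-white replicate 1 or 3.

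**Figure D1:**
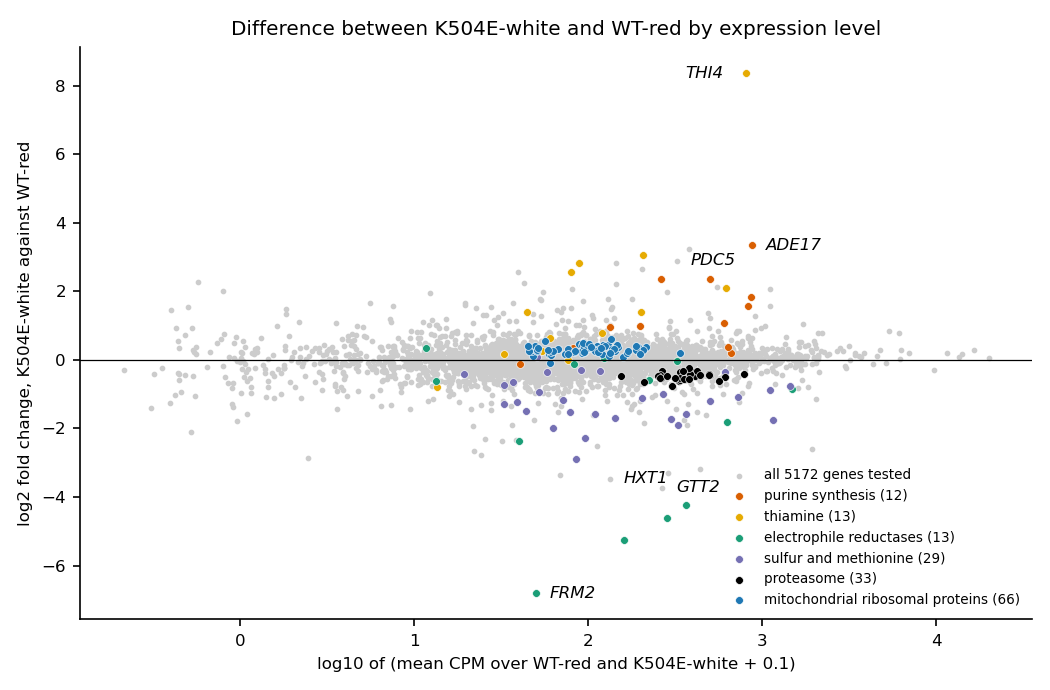
Each point is 1 of 5172 genes, with the log10 of its mean CPM over the 2 groups (plus 0.1) on the horizontal axis and the log2 fold change of K504E-white against WT-red on the vertical axis; colours mark 6 gene lists. THI4 stands apart at 8.37 and FRM2 at -6.80, while the proteasome genes lie together just below 0 and the mitochondrial ribosomal protein genes just above it.

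Purine synthesis rose along nearly its whole length in K504E-white. Of the 12 members tested, 11 were called higher and none lower, with a median log2 fold change of 1.03, and 6 rose at least 2-fold. ADE17, one of a pair of genes for the enzyme that makes inosine monophosphate, had 148, 138 and 183 CPM in WT-red and 1588, 1531 and 1654 CPM in K504E-white. Its groups lay far apart, at 3.35 on the log2 scale (SE 0.103, edgeR adjusted p 2.53e-14). The other gene of the pair, ADE16, had 606, 585 and 653 CPM against 702, 694 and 715 CPM. ADE16 changed far less, by 0.19 (SE 0.0560, adjusted p 0.00836), and its call was lost when K504E-white replicate 1 or 3 or WT-red replicate 1 was left out. ADE2 (YOR128C, contig 141, 11401 to 13116), which encodes the carboxylase at the pigment step, had 84.3, 77.3 and 97.0 CPM in WT-red and 424, 438 and 454 CPM in K504E-white, a rise of 2.35 on the log2 scale (SE 0.0751, adjusted p 3.74e-14). Counts per gene do not show whether the ADE2 sequence had changed.

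The steps before and after Ade2 rose too. ADE4, the first committed enzyme of the pathway, rose from 132 ± 2.38 to 262 ± 15.7 CPM (SD, n = 3), or 0.99 on the log2 scale (SE 0.0551). ADE5,7, ADE8 and ADE6, which act between Ade4 and Ade2, rose by 1.56, 0.97 and 1.08 on the log2 scale. ADE1, which follows Ade2, had 161, 156 and 172 CPM in WT-red against 851, 790 and 864 CPM in K504E-white, a rise of 2.36 (SE 0.0570, adjusted p 1.69e-15). ADE13, used both in this pathway and for AMP, rose by 1.84 (SE 0.0522), and ADE12, the first step from inosine monophosphate to AMP, by 0.39 (SE 0.0631). Of the regulators, PHO2 rose by 0.36 (SE 0.0639) and BAS1 was not called (-0.11, SE 0.0978, adjusted p 0.393). K504E-red lay between the other groups for ADE17 (295 CPM), ADE1 (251 CPM) and ADE2 (121 CPM), and K504E-white exceeded K504E-red by 2.43, 1.73 and 1.86 on the log2 scale (adjusted p 7.94e-13, 4.29e-14 and 6.16e-13). For ADE12 (787 CPM in K504E-red) and ADE16 (699 CPM) the white and red mutant were not called different, at -0.13 (adjusted p 0.103) and 0.01 (adjusted p 0.892).

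The promoters of ADE17 and ADE1 are shown because both genes rose strongly and both windows hold the shared core of Bas1 and Gcn4 sites, TGACTC, searched on both strands and capitalised below. The windows run from 250 bases before to 50 bases after the first base of the start codon, in the S288C R64 assembly of RefSeq, chrXIII:509231-509530 on the minus strand for ADE17 and chrI:169125-169424 on the plus strand for ADE1. The W303 sequence may differ from them.
ADE17: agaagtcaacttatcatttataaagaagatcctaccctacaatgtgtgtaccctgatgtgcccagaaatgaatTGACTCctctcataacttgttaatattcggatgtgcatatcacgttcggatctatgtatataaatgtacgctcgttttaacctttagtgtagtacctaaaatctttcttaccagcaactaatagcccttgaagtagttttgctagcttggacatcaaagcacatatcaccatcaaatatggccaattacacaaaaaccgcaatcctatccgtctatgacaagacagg
ADE1: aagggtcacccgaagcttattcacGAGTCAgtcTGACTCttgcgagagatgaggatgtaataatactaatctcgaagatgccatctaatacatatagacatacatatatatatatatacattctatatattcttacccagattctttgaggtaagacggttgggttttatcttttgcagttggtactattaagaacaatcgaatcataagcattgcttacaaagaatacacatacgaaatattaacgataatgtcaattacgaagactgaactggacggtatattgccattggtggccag
The core occurred in 7 of the 12 purine windows (58.3%) and in 8.51% of all 5157 windows, and all 7 of those purine genes rose. ADE4, ADE6, ADE16 and PHO2, without it in these windows, rose too, and BAS1 was not called. The rise of the 7 therefore does not set them apart from the rest of the list. Among the other 432 tested genes with the core, 26.2% were called higher and 26.2% lower.

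**Figure D2:**
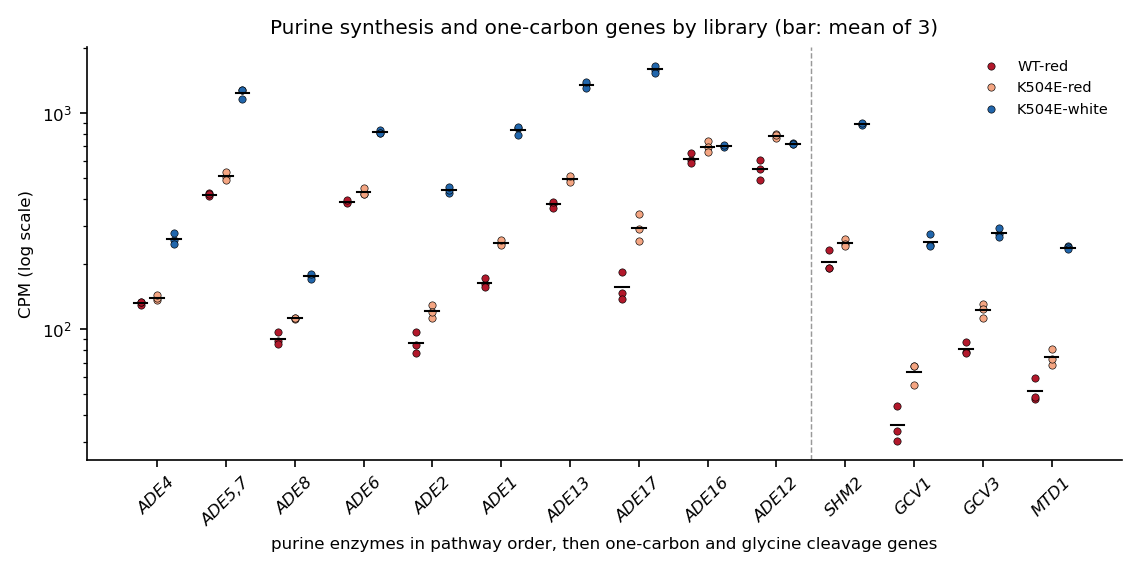
CPM in each library (log scale) for 10 purine enzymes in pathway order and 4 genes of glycine and one-carbon metabolism, with a bar at the mean of 3 libraries. In 12 of these genes K504E-white lies above both red groups, while for ADE16 and ADE12 it lies near K504E-red.

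Genes that feed one-carbon units into the pathway split. Of 17 members tested 7 were called higher and 5 lower (median 0.03), and the 5 that rose at least 2-fold all act on glycine or on one-carbon folates. GCV1, a subunit of the mitochondrial glycine cleavage complex, had 33.8, 30.3 and 43.9 CPM in WT-red and 245, 242 and 275 CPM in K504E-white, a rise of 2.82 on the log2 scale (SE 0.112). GCV3, another subunit, rose by 1.78 and GCV2, its decarboxylase, by 1.77. MTD1, a cytosolic folate dehydrogenase, rose by 2.20 (SE 0.0828) and SHM2, the cytosolic serine hydroxymethyltransferase, by 2.12 (SE 0.0675), from 205 ± 23.2 to 890 ± 8.57 CPM (SD, n = 3). The 5 members called lower were enzymes of folate synthesis, the largest fall being -0.46 for FOL1, and that count was 3 without WT-red replicate 1. Purine salvage and the GTP branch changed in both directions, with 5 of 18 members higher and 3 lower. The cytosine permease-like gene FCY21 fell by 1.33 and the adenosine kinase gene ADO1 by 0.64 on the log2 scale, and HPT1, which reclaims hypoxanthine and guanine, rose by 0.54. AAH1, the adenine deaminase gene, rose by 0.72 over WT-red (90.6 to 149 CPM), whereas K504E-red had 33.4 CPM. The count of 5 higher was 3 when any of WT-red replicate 3, K504E-red replicate 2 and K504E-white replicate 1 was left out.

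Vitamin B1 genes held the largest rise of the comparison. Thiamine, in its diphosphate form, is the cofactor of pyruvate decarboxylase, transketolase and the 2-oxoacid dehydrogenases, and yeast makes it from a pyrimidine and a thiazole moiety under the control of Thi2, Thi3 and Pdc2. Of 13 members tested 10 were called higher and 1 lower, with a median of 1.38. THI4 (YGR144W, contig 199, 16465 to 17445), which makes the thiazole moiety, had 3.77, 4.34 and 6.45 CPM in WT-red and 1275, 1669 and 1898 CPM in K504E-white, and 8.31, 8.68 and 11.2 CPM in K504E-red. Both red groups were near the bottom of the table and every white library was above 1000 CPM. The log2 fold change was 8.37 (SE 0.180, adjusted p 5.32e-16), or 331-fold, and the difference of K504E-white from K504E-red was 7.42 (adjusted p 4.60e-16). PET18, which is induced without thiamine, rose by 3.07 (SE 0.116), and THI73, a transporter-like gene of the same group, by 2.84 (SE 0.1). THI20 and THI21, kinases for the pyrimidine moiety, rose by 2.11 and 2.58, and THI6, which joins them, by 1.40. THI80, the pyrophosphokinase, rose by 0.63. The regulator THI2 rose by 1.38 (SE 0.110) and THI3 by 0.80 (SE 0.0630), while PDC2 was at 77.5 ± 2.45 and 76.7 ± 1.39 CPM (-0.01, SE 0.0610, adjusted p 0.866). THI72, a thiamine transporter gene, fell by 0.80 (SE 0.127). THI22 was called at 0.27, but not without K504E-white replicate 2.

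In the vitamin B6 list 5 of the 7 members tested were called higher and none lower, PDX3 and TPN1 among the 5. The SNZ and SNO genes of that list form divergent pairs that serve the synthesis of pyridoxal phosphate. SNZ2 had 56.9, 77.9 and 85.1 CPM in WT-red and 611, 649 and 795 CPM in K504E-white, a rise of 3.22 (SE 0.160). Its divergent neighbour SNO2, whose annotated start lies 392 bases away, rose by 1.98 (SE 0.115). Both have copies in S288C, SNZ3 at 99.3% and SNO3 at 99.7% identity, which are not in the table of counts, so the reads of each pair may have been merged or lost and these values are uncertain. The pair SNZ1 and SNO1, at another place, had 0.56 (SE 0.123) and 0.03 (SE 0.169, adjusted p 0.900). PDC5, a pyruvate decarboxylase gene, had 60.9, 92.1 and 77.2 CPM in WT-red, 469, 639 and 600 CPM in K504E-white, and a mean of 31.5 CPM in K504E-red. PDC5 rose by 2.89 (SE 0.127, adjusted p 3.89e-12), while the main pyruvate decarboxylase gene PDC1 fell by 0.31 (SE 0.0715) and had a mean of 5082 FPKM in K504E-white. SFA1, which oxidises glutathione-bound formaldehyde, fell by 1.84 (SE 0.0634).

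**Figure D3:**
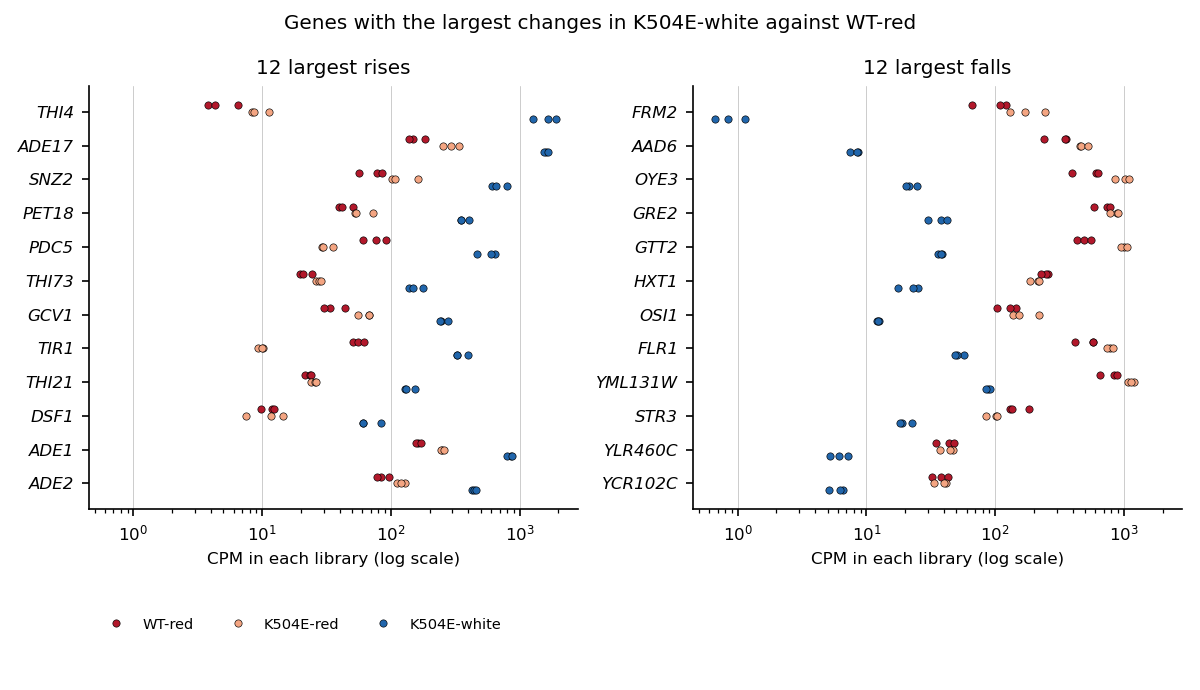
CPM of each library (log scale, 3 points a group) for the 12 genes with the largest rises and the 12 with the largest falls. In every gene shown the K504E-white points lie apart from those of WT-red, and in 9 of the 24 genes, TIR1, PDC5, FRM2, AAD6, OYE3, GRE2, GTT2, FLR1 and YML131W, all K504E-red points lie beyond those of WT-red on the side away from K504E-white.

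The largest falls were in genes for reductases that act on reactive carbonyls and quinones, which yeast switches on through Yap1, a factor activated by peroxides and thiol-reactive compounds. The list also holds the transcription factor genes YAP1 and CAD1. Of its 13 members tested 9 were called lower and none higher, with a median of -0.84. FRM2 (YCL026C-A, contig 142, 7616 to 8197), a nitroreductase-like gene, had 66.3, 121 and 109 CPM in WT-red and 0.668, 1.13 and 0.846 CPM in K504E-white, and a mean of 181 CPM in K504E-red. It was close to 0 in all white libraries, with -6.80 on the log2 scale (SE 0.310, adjusted p 5.97e-12). HBN1, a like gene beside it, fell by 2.37 (SE 0.107), while the amino acid permease gene AGP1 on the other side rose by 0.84 (SE 0.0619). OYE3, an NADPH oxidoreductase known as old yellow enzyme, had 395, 603 and 629 CPM against 21.2, 20.2 and 24.7 CPM, or -4.62 on the log2 scale (SE 0.152, adjusted p 5.53e-14). AAD6 (-5.25, SE 0.134), an aryl-alcohol dehydrogenase-like gene, and GRE2 (-4.25, SE 0.121), a methylglyoxal reductase, fell as steeply. OYE2 and ADH6 fell less, by 0.84 and 1.80, and YAP1 itself by 0.59 (SE 0.0519, 270 ± 16 to 179 ± 2.30 CPM). GRE3, ZTA1, CAD1 and AAD15 were not called (-0.04, 0.05, -0.12 and 0.34). Outside that list, the log2 fold changes were -3.36 for OSI1, -3.18 for YML131W, -2.78 for YLR460C and -2.67 for YCR102C.

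The promoter of OYE3 is shown because it holds the Yap1 site TTACTAA on each strand, here as TTACTAA and as its reverse complement TTAGTAA in capitals (R64, chrXVI:227322-227621, minus strand).
OYE3: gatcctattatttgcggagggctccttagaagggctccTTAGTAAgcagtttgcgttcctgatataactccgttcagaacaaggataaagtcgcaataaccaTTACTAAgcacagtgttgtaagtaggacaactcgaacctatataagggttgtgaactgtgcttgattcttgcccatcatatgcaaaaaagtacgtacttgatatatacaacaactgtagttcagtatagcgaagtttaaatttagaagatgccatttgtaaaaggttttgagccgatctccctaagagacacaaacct
The site occurred in 2 of the 12 windows of the reductase list (16.7%) and in 7.81% of all windows. In the window of FRM2 these letters were not found. Among the other 400 tested genes with the site, 35.3% were called lower and 21.5% higher.

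Glutathione genes fell in K504E-white at the steps of synthesis, conjugation and transport. Of 19 members 12 were called lower and 3 higher, with a median of -0.51. GSH1, the rate-limiting enzyme of glutathione synthesis, had 579, 563 and 614 CPM in WT-red and 159, 156 and 151 CPM in K504E-white, or -1.91 on the log2 scale (SE 0.0564, adjusted p 1.62e-14). GTT2, a glutathione transferase, had 435, 494 and 559 CPM against 36.1, 38.4 and 38.1 CPM, or -3.72 (SE 0.0823). The omega-class transferase genes GTO1 and ECM4 fell by 1.76 and 1.53, and GLR1, the glutathione reductase gene, by 0.96. YCF1, the vacuolar pump for glutathione conjugates, fell by 1.53. Of 21 genes for thioredoxins, peroxidases and catalases, 12 were called lower and 4 higher. GPX2 fell by 1.92 (SE 0.107), the copper chaperone gene CCS1 by 1.21 (SE 0.0503), AHP1 by 1.15 (SE 0.0592) and TRX2 by 1.01 (SE 0.0646). AHP1, a peroxiredoxin, was among the most abundant messages per length, with 5299 ± 305 FPKM in WT-red and 2378 ± 89.2 in K504E-white (SD, n = 3). Drug exporters followed with 12 of 18 lower and 3 higher, led by FLR1 (417, 572 and 571 CPM to 57.7, 50.7 and 49.1 CPM, -3.31, SE 0.104) and ATR1 (-2.52, SE 0.0761). SNQ2 fell by 1.00 (SE 0.0620) and the transfer protein gene PDR16 by 0.88. K504E-red stood above WT-red for several of these genes, with means of 989 CPM for OYE3, 999 for GTT2, 734 for GSH1 and 777 for FLR1. The differences of K504E-white from K504E-red were -5.49, -4.74, -2.24 and -3.89 on the log2 scale.

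Sulfur assimilation and methionine genes fell almost to the last member. The pathway takes up sulfate, reduces it to sulfide and makes homocysteine, methionine, cysteine and S-adenosylmethionine, and Met4 with its partners drives it. Of 29 members 28 were called lower and none higher (median -1.17), and 17 fell at least 2-fold, where 1.82% of all genes did. MET3, ATP sulfurylase at the start of reduction, had 559, 451 and 539 CPM in WT-red and 127, 152 and 135 CPM in K504E-white (-1.91, SE 0.0942). MET16, which reduces activated sulfate, had 176, 137 and 164 CPM against 35.2, 33.6 and 29.3 CPM (-2.28, SE 0.0880, adjusted p 5.27e-13). STR3, which makes homocysteine from cystathionine, had 183, 130 and 136 CPM against 22.7, 19 and 18.4 CPM (-2.90, SE 0.121, adjusted p 1.63e-12). The groups' libraries did not overlap in 28 of the 29 members, these 3 genes among them, where 56.1% of all genes did not. MET17, which fixes sulfide into homocysteine, fell by 1.76. The methionine permease gene MUP3 fell by 1.99 (SE 0.0864). MET4 fell by 0.30, and CBF1, a partner of Met4, was not called (0.09). The core of Met31 and Met32 sites, CTGTGG, occurred in 7 of the 29 windows (24.1%) and in 7.04% of all windows, and all 7 genes fell. Members without it in these windows were called lower too, except CBF1, so the fall of the 7 does not set them apart. Among the other 355 tested genes with that core 27.3% were called lower and 22.0% higher. In K504E-red 13 of the 29 were called lower than in WT-red and 4 higher (median -0.09), and 27 of 29 were called lower in K504E-white than in K504E-red, where 27.3% of all genes were.

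Other amino acid pathways moved less. Of 46 synthesis genes 27 were called lower and 5 higher (median -0.20), the largest falls being those of ORT1, the mitochondrial ornithine carrier gene (78.4 ± 12.6 to 39.3 ± 5.58 CPM), LYS20 (-0.91), TRP3 (-0.69) and LYS9 (-0.68). LYS20 has a 95.3% identical stretch in LYS21, so part of its reads may be shared. The 5 higher were 2 without K504E-white replicate 1 or 2. Of 14 serine, glycine and threonine genes, 8 were called lower and 3 higher. HOM3, aspartate kinase, fell by 1.44 (SE 0.0813), and SER33 and SER3, for the first step to serine, by 1.19 and 0.84. CHA1, the serine and threonine deaminase gene, rose from 26.3, 30.5 and 35.9 CPM to 120, 157 and 112 CPM (2.07, SE 0.130), and had 7.57 CPM in K504E-red. Genes repressed by good nitrogen sources were higher in 13 of 29 cases and lower in 2. GAP1, the general amino acid permease gene, rose from 1119 ± 96.0 to 2297 ± 138 CPM (SD, n = 3), or 1.04 (SE 0.0762), and PUT4, the proline permease gene, by 1.06 (SE 0.115). CAR2, ornithine transaminase, rose by 1.24 (SE 0.123) and GDH2, which releases ammonium from glutamate, by 0.83.

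**Figure D4:**
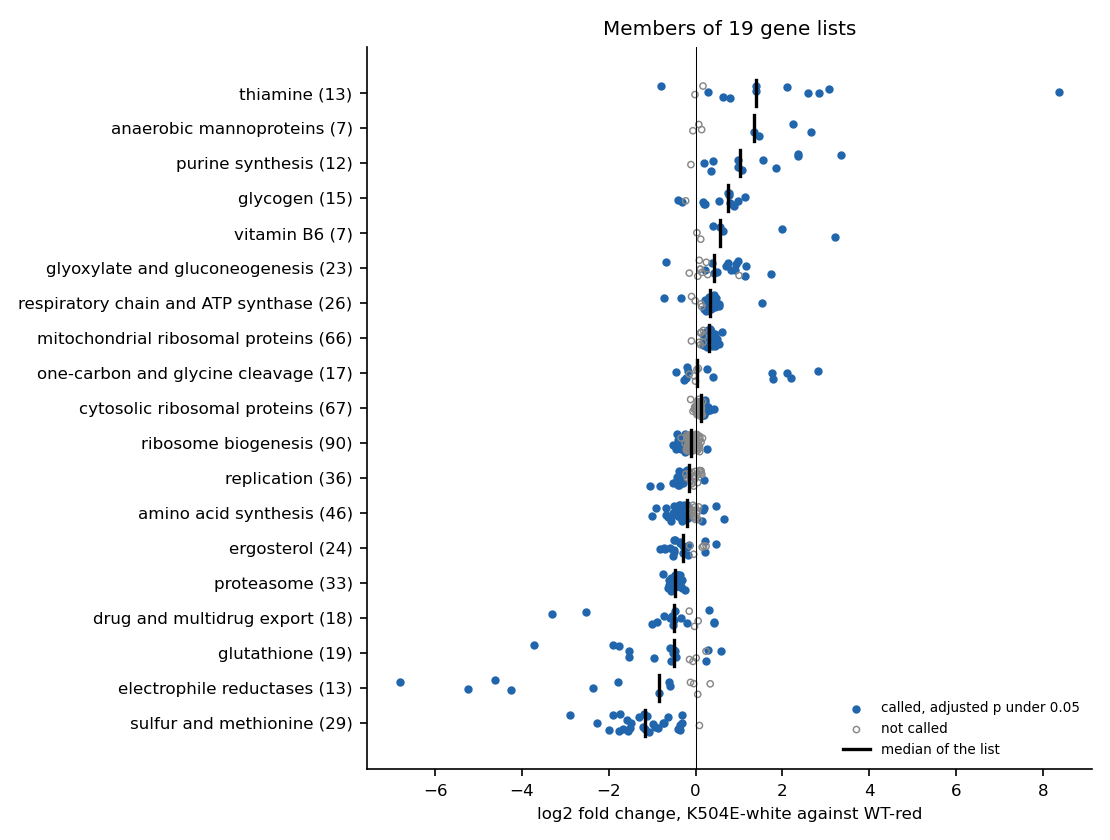
Log2 fold changes of the tested members of 19 gene lists (number in brackets), filled where called at an adjusted p under 0.05, with a black bar at the list's median. The medians run from 1.38 for the thiamine genes to -1.17 for the sulfur and methionine genes, and the median of all 5172 genes was -0.01.

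All proteasome genes tested fell, each by less than 2-fold. The proteasome degrades ubiquitin-tagged proteins, and its genes share an element bound by the activator Rpn4. All 33 members tested were called lower (23.5% of all genes were), with a median of -0.48. PRE8, a subunit of the core ring, had 382, 369 and 392 CPM in WT-red and 226, 221 and 232 CPM in K504E-white, or -0.75 on the log2 scale (SE 0.0493, adjusted p 8.57e-10). RPN12, of the lid, had 262, 253 and 250 CPM against 167, 167 and 159 CPM, or -0.63 (SE 0.0485). The ATPase gene RPT1 fell by 0.62 and the core gene PRE1 by 0.61. The smallest fall was that of the ATPase gene RPT4, -0.24 (SE 0.0559). RPN4 itself fell by 0.32. In K504E-red 6 of the 33 were called higher than in WT-red and none lower (median 0.07), and all 33 were lower in K504E-white than in K504E-red.

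The promoters of PRE8 and RPN12 are shown for the proteasome-associated control element, GGTGGCAAA or its reverse complement TTTGCCACC, in capitals. The windows are R64 chrXIII:86690-86989 on the minus strand and chrVI:252255-252554 on the plus strand.
PRE8: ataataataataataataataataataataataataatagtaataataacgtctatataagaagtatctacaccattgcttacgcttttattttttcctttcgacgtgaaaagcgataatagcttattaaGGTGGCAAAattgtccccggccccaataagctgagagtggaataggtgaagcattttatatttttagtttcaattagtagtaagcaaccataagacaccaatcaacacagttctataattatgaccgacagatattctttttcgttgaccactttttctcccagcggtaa
RPN12: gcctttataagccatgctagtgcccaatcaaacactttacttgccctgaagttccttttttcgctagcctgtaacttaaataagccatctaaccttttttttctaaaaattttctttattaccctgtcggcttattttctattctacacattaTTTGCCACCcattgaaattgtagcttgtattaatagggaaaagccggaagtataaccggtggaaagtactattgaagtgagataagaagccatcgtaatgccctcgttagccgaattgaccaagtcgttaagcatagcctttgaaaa
The element occurred in 27 of the 33 proteasome windows (81.8%) and in 66 of all 5157 windows (1.28%). Of 39 tested genes outside the list with the element, 23 were called lower (59.0%) and 2 higher. The 6 proteasome genes without it in these windows fell too.

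**Figure D5:**
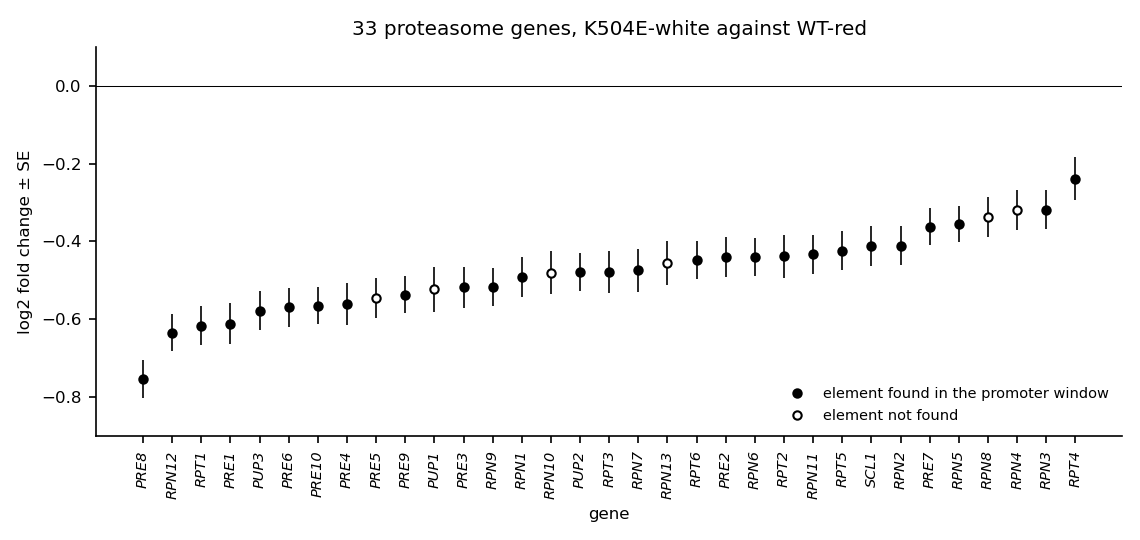
Log2 fold change ± SE of 33 proteasome genes in order of size, with filled circles where the control element was found in the promoter window and open circles where it was not. All lie below 0, between -0.75 for PRE8 and -0.24 for RPT4, with filled and open circles mixed.

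Genes of protein folding and of long survival changed in both directions. Of 21 cytosolic heat shock chaperone genes, 4 were called higher and 7 lower: the small heat shock gene HSP26 rose from 571, 506 and 610 CPM to 1514, 1905 and 1595 CPM (1.57, SE 0.0941) and SSA3 by 1.52, whereas YDJ1, a co-chaperone of Hsp70, fell by 0.56. HSP12, a membrane-protecting stress gene, had 326, 467 and 481 CPM in WT-red and 1590, 2120 and 1683 CPM in K504E-white, a rise of 2.08 (SE 0.135, adjusted p 7.55e-10). In the same list of 20 stationary phase and desiccation genes, 9 were called higher and 4 lower. SPG4 rose by 1.95 (SE 0.203) and FMP45 by 1.65, and HSP31, a methylglyoxalase gene, fell by 1.76 (SE 0.1) and had 1006 CPM in K504E-red. The stress response element, CCCCT on either strand, occurred in 9 of the 20 windows (45%) and in 21.5% of all. Of those 9 genes 2 were called higher and 2 lower. Among 1096 other genes with it 33% were called higher and 18.0% lower. In the endoplasmic reticulum, 7 of 16 chaperone genes were lower and 2 higher, with ERO1, the disulfide oxidase gene, at -1.62 (SE 0.0626) and KAR2, the main Hsp70 there, at -0.30. Those 7 were 4 without WT-red replicate 3.

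Genes for glycogen, gluconeogenesis and respiration were mostly higher. Of 15 glycogen genes 12 were called higher and 2 lower (median 0.74). The phosphatase-targeting gene GAC1 had 160, 191 and 198 CPM in WT-red and 415, 403 and 396 CPM in K504E-white (1.14, SE 0.0701). The branching enzyme gene GLC3 rose by 0.98 and the synthase gene GSY1 by 0.88, and the debranching enzyme gene GDB1 by 0.85. Glucose transport was led by a fall: HXT1, the low-affinity transporter gene used at high glucose, had 257, 249 and 227 CPM against 25.1, 17.7 and 23.2 CPM (-3.47, SE 0.104, adjusted p 1.93e-14). Of the 18 members tested in that list 7 were higher and 5 lower, HXT1 among the 5. HXK1, a hexokinase gene used off glucose, rose by 0.80 (SE 0.0670), and MIG2, a repressor made on glucose, fell by 0.63. Of 23 glyoxylate and gluconeogenesis genes 13 were higher and 1 lower (median 0.43), with the lactate transporter gene JEN1 at 1.74 (22.0, 24.9 and 27.2 CPM to 95.3, 78.5 and 73.2 CPM), MDH2 at 1.16 and the activator CAT8 at 1.15. The carbon source response element was found in none of these 23 windows and in 1.07% of all. Respiratory chain genes were higher in 20 of 26 cases and lower in 2 (median 0.33), and TCA cycle genes in 13 of 23, with 3 lower. NDE2, an external NADH dehydrogenase gene, rose by 1.53 (SE 0.134) from 11.7 CPM, whereas NDE1, its more abundant relative, fell by 0.72 (772 ± 52.2 to 470 ± 6.40 CPM). Of 12 retrograde response genes, the set that answers mitochondrial defects, 6 were lower and none higher. DLD3 fell by 1.24 (SE 0.0587) and PDH1 by 0.90. Against WT-red, K504E-red also had 11 of the 15 glycogen and 18 of the 26 respiratory chain genes called higher and none lower. For TCA cycle genes the count was 16 of 23 and none lower, and for gluconeogenesis 10 of 23 and 1 lower. In that order K504E-white was called higher than K504E-red in 7, 9, 5 and 9 members and lower in 4, 4, 8 and 3. Between K504E-red and WT-red 47.5% of all genes were called in either direction, and between the mutant groups 54.5%.

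Mitochondrial ribosomal protein genes were nearly all higher, 58 of 66 called and none lower, with a median of 0.30. MRPL17 rose by 0.61 (SE 0.0658, 108 ± 5.46 to 164 ± 11.1 CPM) and MRPS17 by 0.50. For cytosolic ribosomal protein genes the count was 20 of 67 higher and none lower (29.9% against 23.3% of all genes, median 0.11). That count ranged from 5, without K504E-white replicate 1 or 3, to 25 under the alternatives tried, and the list lay below WT-red in K504E-red (median -0.48). RPL3, for instance, was at 4524, 4180 and 4172 CPM in WT-red, 5219, 5119 and 5454 CPM in K504E-white and 3601 CPM in K504E-red. Ribosome biogenesis was lower in 14 of 90 cases and higher in 1 (15.6% against 23.5%), and between 7, without WT-red replicate 2, and 28, without K504E-red replicate 3, were lower when settings changed. RNA polymerase I and III genes were lower in 17 of 32 cases, or 11 without WT-red replicate 2, and higher in 2. In K504E-red 86 of the 90 biogenesis genes (median -0.615) and 24 of these 32 were called lower than in WT-red. The mitochondrial ribosomal protein genes lay on the other side there, with 37 of 66 called higher than in WT-red and none lower (median 0.18). Of all genes 47.5% were called in either direction in that comparison. In K504E-white 25 of those 66 were called higher than in K504E-red and 2 lower (median 0.11).

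Genes of cell surface and oxygen response rose in part. The anaerobic mannoproteins are wall proteins that yeast makes without oxygen or in the cold. Their list also holds the gene of the activator Upc2. Of its 7 members tested 4 were called higher, all at least 2-fold, and none lower. TIR1 had 50.4, 55.9 and 61.8 CPM in WT-red, 400, 328 and 328 CPM in K504E-white and a mean of 9.83 CPM in K504E-red. The log2 fold change was 2.65 (SE 0.0848, adjusted p 3.74e-14) and 5.16 between the mutant groups. DAN1 rose by 2.24 (SE 0.194), from 10.3, 17.4 and 16.6 CPM to 94.7, 55.2 and 60.8 CPM, TIR3 by 1.46 and TIR4 by 1.36, and TIR2, DAN4 and the activator UPC2 were not called. The Upc2 site TCGTATA occurred in 2 of these 7 windows (28.6%), those of DAN1 and of DAN4, which was not called, and in 4.15% of all. The window of TIR1 did not hold it, and among the other 212 tested genes with that site 30.7% were called higher and 26.4% lower. Of 16 heme and hypoxia genes 8 were higher and 1 lower, led by HEM13, coproporphyrinogen oxidase, at 1.28 (534 ± 37.1 to 1296 ± 56.4 CPM). The anaerobic carrier gene AAC3 rose by 0.73, and ROX1, the repressor of these genes, was not called (-0.11). Ergosterol synthesis, which needs both oxygen and heme, was lower in 16 of 24 cases and higher in 3 (6 without K504E-white replicate 3), none by 2-fold. ERG2 fell by 0.82 (SE 0.0566) and ERG13 by 0.72. In K504E-red 19 of the 24 ergosterol genes were called lower than in WT-red, where 47.5% of all genes were called in either direction. Their median was -0.47 in K504E-red and -0.28 in K504E-white. Of 27 cell wall genes 14 were higher and 4 lower, with SED1, the main wall protein of stationary cells, rising by 0.84 to 6714 ± 175 FPKM (SD, n = 3) and the cross-linking enzyme gene UTR2 falling by 0.72.

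Among telomere, replication and repair genes RAD59 and CDC6 fell at least 2-fold, and the other called members changed by less. In the list of CST and DNA polymerase alpha-primase genes 3 of 7 were called lower, POL1 (-0.39, SE 0.0719), PRI2 (-0.30) and POL12 (-0.31), the last not when K504E-white replicate 3 or WT-red replicate 3 was left out. CDC13 was among the 4 not called. Of 16 genes for telomerase and telomere length 4 were lower (2 without K504E-white replicate 3) and 2 higher (0 without K504E-white replicate 2). EST2, the catalytic subunit of telomerase, fell from 18.3 ± 2.45 to 13.0 ± 0.976 CPM (-0.49, SE 0.128). In recombination 9 of 22 were lower and none higher. RAD59, an annealing factor of survivor-type telomere recombination, fell from 42.4, 35.1 and 43.7 CPM to 14.6, 17.8 and 11.4 CPM (-1.47, SE 0.137), and RAD52 fell by 0.66 (SE 0.0701). Replication genes were lower in 16 of 36 cases and higher in 1. The licensing genes CDC6 and TAH11 fell by 1.06 (SE 0.154) and 0.83 (SE 0.0655). Against WT-red, K504E-red had 19 of the 36 replication genes called lower and none higher (median -0.20, K504E-white -0.16). The CST and polymerase list had 4 of 7 lower in K504E-red and the recombination list 4 of 22, with none higher. K504E-white was called higher than K504E-red in 12 replication genes and lower in 5. For CST and polymerase genes these counts were 3 and 1, and for recombination 3 and 9. Of 27 checkpoint and ribonucleotide reductase genes 7 were higher and 7 lower, near the share of the whole table. RNR3, the damage-inducible large subunit, rose by 0.83 (SE 0.0999, 20.4 to 36.2 CPM), and RAD53, the checkpoint kinase gene, and MAG1, a glycosylase gene, fell by 0.76 and 0.86. The 7 higher were 4 without K504E-red replicate 2 or K504E-white replicate 2. Silencing genes were called in 7 of 16 cases, near the 46.8% of all genes. Of these 2 were higher (12.5% against 23.3% of all genes) and 5 lower (31.25% against 23.5%), with SIR3 at 0.34 (SE 0.0679). The 5 lower were 3 when WT-red replicate 2 or 3 or K504E-white replicate 2 was left out. Histone genes were higher in 7 of 9 cases, but in 3 without K504E-white replicate 2 or 3, and none reached 2-fold. The mitotic cyclin gene CLB1 rose by 0.73.

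Smaller groups held single large changes. In NAD synthesis BNA4 rose by 1.5 (SE 0.0712) and BNA5 by 1.02, while BNA3 fell by 1.34 (SE 0.0841), and 3 of 14 members were higher and 4 lower (2 without WT-red replicate 3). In the iron regulon 9 of 28 were higher and 7 lower. FET3, the high-affinity iron oxidase gene, rose by 1.22 (SE 0.0932, 84.0 to 196 CPM), FIT2, a wall protein that holds iron, by 1.01 and the mRNA decay gene TIS11 by 1.19, and the reductase gene FRE1 fell by 1.00. In the phosphate regulon 7 of 19 were higher and 2 lower, with the glycerophosphoinositol transporter gene GIT1 at 1.29 and the phosphate transporter gene PHO84 at 0.84. Glycerol genes were lower in 6 of 15 cases and higher in 2. The dihydroxyacetone kinase gene DAK2 fell by 1.15 (SE 0.180) and the phosphatase gene GPP2, which makes glycerol, by 1.03 (SE 0.0844), and GUT1 and GUT2, which use it, rose by 0.85 and 0.75. Vacuolar ATPase genes were higher in 9 of 13 cases (5 without K504E-white replicate 1 or 2), with VMA3 at 0.29. Of 34 autophagy genes 11 were higher and 5 lower (3 when replicate 3 of either group was left out). ATG1, the initiating kinase gene, fell by 0.75 (SE 0.0820), as did the vacuolar peptidase gene APE1 of another list (-0.68). In 23 pheromone response genes 7 were lower and 3 higher, KSS1 at -0.83 and its relative FUS3 at 0.68.

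Among genes next to the 24 with the largest changes, 7 of 40 neighbours were called higher (17.5%) and 12 lower (30%). Of all genes 23.3% were called higher and 23.5% lower. SKN1 beside THI4 rose by 0.49 and ENP2 on the other side was not called (-0.01). The neighbours of ADE2, AFI1 and RGA1, were not called (0.04 and -0.06). DSF1, a mannitol dehydrogenase gene, rose by 2.58 (SE 0.180) and its neighbour DLD3 fell. DSF1 has a 98.9% identical copy, MAN2, outside the table, so its value is uncertain. ERO1 lies 187 bases from YML131W, and both fell.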

How the data were processed

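RNA was sequenced from 9 yeast libraries, and the whole set entered 1 model. Per the file headers, the authors deposited raw counts per gene and FPKM values per library, with genes placed on contigs of a W303 assembly. The aligner and counter, with versions and strand setting, are not given in the sources used here, so reads of overlapping or near-identical genes could not be checked. Columns were matched to libraries by name.

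The table held 5205 genes, of which 6 had no count, and 5162 matched a RefSeq R64 locus tag, the source of the symbols. From the deposited counts, filterByExpr left 5172 genes, library sizes were scaled by TMM, and edgeR 4.0.16 (R 4.3.3) quasi-likelihood tests were run on a design of group alone; p-values are two-sided and adjusted by Benjamini-Hochberg over all genes. A gene was called at an adjusted p under 0.05. SE was taken from the F statistic, and CPM uses TMM-scaled sizes. Levels between genes are given in the authors' FPKM. P-values set a difference between groups against the spread between biological replicates, 3 a group. That spread was estimated from all 9 libraries and in part shared across genes. The script was tested on simulated data.

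The gene lists and members were chosen with earlier results of these data known, so they carry no test of their own, and 2 misplaced genes were removed from lists after values had been seen. Named genes were the 12 largest changes in each direction without overlap of the libraries and with at least 10 CPM in the higher group, 4 members per list with the largest called changes, regulators and end enzymes, all members of 5 lists, neighbours of the former and the 10 highest FPKM. GCV2, FOL1, GLR1, YCF1, MET17 and RPT4 were named after their values had been seen. Of 7 promoter motifs, those of Met31 and Met32 and of the proteasome genes were added after the data had been seen. Promoter windows came from R64, read by locus tag. BLAST 2.17.0 found near copies (100 bases or more at 95% identity or above).

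Alternatives were DESeq2 size factors, upper quartile scaling, other count filters, the DESeq2 1.42.0 Wald test, limma 3.58.1 on log2 of FPKM plus 1 or 0.1, the 2 groups alone, robust dispersions (added after the data had been seen), a replicate block and omission of each library. Plots were drawn with matplotlib 3.10.9.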

Additional observations from a re-analysis of the deposited data

Results flagged for a closer look

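The screen covered the 280 named genes only and required the difference between the mutant groups to be called. In it, 19 of the named genes met every condition at once. All 19 changed at least 2-fold in K504E-white against WT-red. They were also called in the opposite direction in K504E-red against WT-red, by at least 0.5 on the log2 scale. Other named genes that changed at least 2-fold, such as THI4 and ADE17, moved the same way in K504E-red and were left out. Both comparisons share the WT-red libraries, and choosing the genes this way fixes a difference of more than 1.5 between the mutant groups, so that difference is given as a description and was not tested independently. The log2 differences of K504E-white from K504E-red were positive for the wall protein genes DAN1 (5.44) and TIR1 (5.16), for PDC5 (4.17) and CHA1 (4.09), and for FET3 (1.87) and HEM13 (1.85). They were negative for the reductase and oxidoreductase genes FRM2 (-7.67), AAD6 (-5.87), OYE3 (-5.49) and YML131W (-3.70), and for the exporter genes FLR1 (-3.89) and ATR1 (-3.09). They were also negative for the glutathione and peroxide genes GTT2 (-4.74), GPX2 (-2.84), ECM4 (-2.65) and TRX2 (-1.51), and for HSP31 (-2.64), YLL059C (-2.16) and GPP2 (-1.79). In DAN1, for example, WT-red had a mean of 14.8 CPM, K504E-red 1.6 and K504E-white 70.2. In ECM4 the means, in the same order, were 291, 631 and 101 CPM.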

How the results depend on the processing

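The 2422 called genes became 2113 to 2464 when single libraries were left out and 2336 to 2511 under the other alternatives, and the 183 genes changed at least 2-fold became 178 to 186 and 163 to 185. No gene was called in opposite directions by the main and an alternative fit. The share of higher genes among the calls, 49.8%, was 41.7% with a filter of at least 1 count 41.6% with at least 10 counts in every library and 45.5% with upper quartile scaling. It was also lower, 41.7% to 44.4%, when WT-red replicate 1, K504E-red replicate 2 or 3, or any 1 K504E-white library was left out. The median of all genes moved from -0.01 to -0.03 with upper quartile scaling and to -0.04 with either filter, on the log2 scale. Over 280 named genes and 20 alternatives, 5496 of 5599 values had the same direction and side of the threshold, and 82 values in 20 genes lost a call. Besides those named in the report, the calls lost were of GPM1, PGK1, POT1, STE2, STE3, SAS5, XRS2, TEL1, PHM6, PIP2, NTH1, NTH2, INO1, FAA3, HTA2 and MF(ALPHA)1. The direction turned in 14 values of 6 genes that were not called. With single libraries left out, BAS1 ranged from -0.21 to 0.0204, FBA1 from -0.00576 to 0.104, TIR2 from -0.114 to 0.141, UPC2 from -0.0071 to 0.241, ZTA1 from -0.0282 to 0.101 and SNO1 from -0.0445 to 0.0625. SNO1 was also at -0.00545 with at least 1 count and -0.00524 with at least 10 counts. The causes were not tested. List counts of 1 or 2 genes in the minority direction also moved with single libraries, and a gene of the reductase list was called higher without K504E-white replicate 3. With the replicate block 2360 genes were called, 1171 higher and 1189 lower, and 183 at least 2-fold. The labels do not say that equal numbers mark shared cultures, and deviations of same-numbered K504E-white and WT-red libraries correlated at -0.11, -0.0414 and 0.0274. Low counts limit genes such as MF(ALPHA)1 and PHM6, at a few CPM or less.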

Other observations

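Further gene groups were compared between K504E-white and WT-red. Of 13 glycolysis genes 8 were called higher and 1 lower (median 0.20), among them ENO1 at 0.41 (SE 0.0647), PFK2 at 0.37 (SE 0.0557) and TPI1 at 0.27. Trehalose genes were higher in 3 of 6 cases, the hydrolase genes ATH1 (0.29), NTH2 (0.25) and NTH1 (0.21), and in 1 case without K504E-white replicate 2. ATH1 stood at 0.18 without WT-red replicate 1. No trehalose gene was called lower, but 1 was under several alternatives, DESeq2 size factors and the replicate block among them. In K504E-red all 6 trehalose and 12 of the 13 glycolysis genes were called higher than in WT-red (medians 0.47 and 0.30). Between these groups 47.5% of all genes were called in either direction. In K504E-white 5 genes of each list were called lower than in K504E-red and none higher. Of 16 fatty acid oxidation genes 2 were called higher and 3 lower, and the 3 became 5 without K504E-red replicate 3 or with either other count filter. Of 12 fatty acid synthesis genes 3 were called in each direction, the 3 higher becoming 1 when K504E-white replicate 1 or 2 or WT-red replicate 1 was omitted, with the activator gene SPT23 at 0.40 and the elongase genes ELO1 and ELO3 at -0.27 and -0.24. Inositol and phospholipid genes were higher in 8 of 20 cases and lower in 3, or higher in 5 without K504E-white replicate 2. OPI1, the repressor of these genes, rose by 0.54 (SE 0.0823) and the activator gene INO4 by 0.49 (SE 0.0788), and the inositol transporter gene ITR2 fell by 0.50.

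Amino acid permease genes were higher in 7 of 13 cases and lower in 2, with DIP5 at 0.42 and BAP3, a carrier of branched-chain amino acids, at -0.63. Of 7 vacuolar protease genes 2 were higher, APE3 (0.53, SE 0.0473) and PRC1 (0.26), and 1 was lower, APE1 (-0.68). Cyclin and inhibitor genes were higher in 5 of 13 cases and lower in 2, with SIC1 at 0.29 and CLB5 at -0.34, and the 5 were 3 when K504E-white replicate 2 or WT-red replicate 1 was left out. Of 15 decarboxylase and alcohol or aldehyde dehydrogenase genes 7 were higher and 4 lower, from SFA1 at -1.84 to PDC5 at 2.89, both described above, with the butanediol dehydrogenase gene BDH1 rising by 0.84 (SE 0.0531) and ADH3 by 0.65. Among the 12 meiotic genes NDT80 (-0.75, SE 0.105), DIT1 (-0.69) and DMC1 (-0.47) were called lower and none higher.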
